A study of Mus musculus with 8 samples.

Results

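Osteocalcin and matrix Gla protein are described here by 4 genes, Bglap, Bglap2, Bglap3 and Mgp, chosen by name from the 28956 genes of the count tables. All 4 were measured in all 8 single-cell RNA sequencing libraries of femoral stromal cells from female C57BL/6 mice aged 12 weeks. The Control group was wild-type mice with no fracture. The Fracture group had the left femur broken by bending at 10 weeks of age, was held with an intramedullary nail and was collected at day 14. Surgery was done under ketamine and xylazine with carprofen as analgesic. Each group had 2 preparations with 2 libraries each. The labels do not say whether the preparations were separate animals, so the p-values measure the spread between preparations, which may be technical. In both groups haematopoietic cells had been depleted with beads against lineage markers, CD45 and CD117.

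Osteocalcin is the main non-collagenous protein secreted by mature osteoblasts, and in the mouse it is encoded by a cluster of near-copies. Bglap and Bglap2 are the bone genes, and Bglap3 is best known from tissues outside bone such as kidney. Matrix Gla protein, the product of Mgp, is an inhibitor of calcification made by chondrocytes and vascular smooth muscle cells. Both kinds of protein are carboxylated on glutamate residues by the vitamin K-dependent enzyme Ggcx, and the resulting Gla residues bind calcium.

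The 3 osteocalcin genes lay side by side on the minus strand of chromosome 3 of GRCm38 (the mm10 build), Bglap3 at chr3:88368616-88372743, Bglap2 at chr3:88377736-88378699 and Bglap at chr3:88383501-88384464. Mgp lay on the minus strand at chr6:136872435-136875823. Each had 4 exons. The pseudogenes Gm21956 and Gm6821 lay between the osteocalcin genes, with Paqr6 and Smg5 beyond Bglap3 and Pmf1 and Slc25a44 beyond Bglap. The coding sequences below, read from GRCm38 with the GENCODE M21 annotation, are shown because they set how far reads of the 3 genes could be told apart. Each had 288 bases and 95 codons before the stop, and the capitals mark the bases that differ from Bglap2 (in Bglap) or from Bglap (in Bglap2 and Bglap3).
Bglap: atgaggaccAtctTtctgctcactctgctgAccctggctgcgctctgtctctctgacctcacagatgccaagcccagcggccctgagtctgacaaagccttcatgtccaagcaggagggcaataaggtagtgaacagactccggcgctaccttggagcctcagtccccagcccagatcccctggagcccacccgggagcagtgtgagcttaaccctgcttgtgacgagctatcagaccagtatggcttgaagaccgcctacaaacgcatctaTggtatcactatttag
Bglap2: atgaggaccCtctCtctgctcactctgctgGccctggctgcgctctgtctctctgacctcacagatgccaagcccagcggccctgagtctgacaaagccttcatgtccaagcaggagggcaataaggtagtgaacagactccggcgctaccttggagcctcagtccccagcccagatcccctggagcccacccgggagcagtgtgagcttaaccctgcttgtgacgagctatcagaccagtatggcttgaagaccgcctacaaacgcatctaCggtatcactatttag
Bglap3: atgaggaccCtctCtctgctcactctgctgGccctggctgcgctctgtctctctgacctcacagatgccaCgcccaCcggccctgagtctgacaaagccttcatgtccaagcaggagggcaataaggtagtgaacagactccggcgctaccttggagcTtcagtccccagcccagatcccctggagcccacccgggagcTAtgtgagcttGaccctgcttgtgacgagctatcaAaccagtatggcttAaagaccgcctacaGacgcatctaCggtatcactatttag
Bglap and Bglap2 differed at 4 of the 288 bases (98.61% identity), Bglap and Bglap3 at 13 (95.49%), and Bglap2 and Bglap3 at 9 (96.88%). The coding sequence of Mgp was longer, 315 bases, and had 51.84% identity with Bglap. In the last 200 bases of the transcripts, the end that a 3′ library reads, Bglap had 99.5% identity with Bglap2 and 97% with Bglap3. Of the 50-base windows of the transcripts, 74.7% in Bglap, 88.2% in Bglap2 and 24% in Bglap3 were shared with another osteocalcin gene, and none in Mgp. How reads that match several genes were treated is not given in the sources used here. The division of counts among the 3 genes is therefore uncertain, and their sum is given beside them as the osteocalcin sum. The RefSeq promoter table (GRCm38.p6) held 2 of the 4 members, Bglap and Bglap3. The window of 250 bases before to 50 bases after the start of Bglap, chr3:88384417-88384716 on the minus strand, is shown because levels of the gene are compared throughout. Capitals mark TATAAA and CCAAT, found by searching both strands, and likewise the letters ACCACA at the core of sites of Runx factors.
Bglap promoter: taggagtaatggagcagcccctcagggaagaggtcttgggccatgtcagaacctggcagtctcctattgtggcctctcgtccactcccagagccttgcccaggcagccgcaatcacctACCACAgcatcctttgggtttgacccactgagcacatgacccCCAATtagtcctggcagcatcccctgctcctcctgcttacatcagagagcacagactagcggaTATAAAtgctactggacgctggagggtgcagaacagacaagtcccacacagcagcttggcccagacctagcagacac
Of 32851 promoters of this length, 13.6% held TATAAA, 37.4% CCAAT and 16.8% ACCACA, which was added to the search after the window had been seen. The longer letters AACCACA, which overlap it, were in 5.27% of promoters and not in this window.

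The libraries held 48903 barcodes, of which 45328 passed the filters on genes and mitochondrial reads, and no 2 libraries shared more than 23 barcodes. Total UMIs (unique molecular identifiers, each standing for 1 captured transcript end) were 56543151 to 89126291 per library. The least UMIs of any barcode were 1 to 3 in the Control libraries and 1929 to 2724 in the Fracture libraries, so the tables of the 2 groups did not share a lower limit. Both Control 1 tables held no gene whose symbol begins with U, whereas the other preparations had 278 to 280 such genes with 1.26% to 1.41% of their UMIs. Where 2 adjusted p values are given, the first is with all genes and the other with the U genes left out of every library, a choice made after seeing the data, and a single adjusted p is with all genes. A doublet caller marked 718 cells (1.58%), which were kept. Cells were clustered without the 4 members, and clusters were named from marker genes. The osteoblast-like class raised 5 of 8 markers, among them the bone collagen gene Col22a1. The 2 chondrocyte-like clusters raised 8 and 7 of 8 markers. The bone mesenchymal stromal cell (BMSC)-like, fibroblast-like, endothelial-like, smooth muscle-like and basophil-like classes each raised 6 of 6, the erythroid-like class 8 of 8 and the megakaryocyte-like class 5 of 5. In the order Control 1, Control 2, Fracture 1 and Fracture 2, which is used for every set of 4 values below, there were 1701, 1005, 1647 and 1769 osteoblast-like and 2072, 677, 6808 and 7130 chondrocyte-like cells.

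Bglap was a gene of the osteoblast-like cells. Its level there, in CPM (the share of the UMIs of the class, scaled to parts-per-million), was 68466 and 81063 in Control against 24135 and 32530 in Fracture. Bglap2 stood at 30451, 34921, 9435 and 13891 CPM. Both Control preparations lay above both Fracture preparations for each gene, with no overlap. With 2 preparations against 2, a two-sided exact permutation test of such a separation gives p = 0.333. The share of all genes without overlap was not counted, here or below. Bglap3 stood at 74.2, 103.9, 102.0 and 38.4 CPM, far below its neighbours, and its groups overlapped. Summed, osteocalcin UMIs made up 98991, 116088, 33672 and 46460 CPM in the class. Osteoblast-like cells were 13.3%, 12.7%, 13.9% and 13.8% of the cells and held 94.0%, 96.4%, 84.3% and 86.4% of the Bglap UMIs. A UMI counts transcript ends, so these levels were not divided by gene length.

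**Figure D1:**
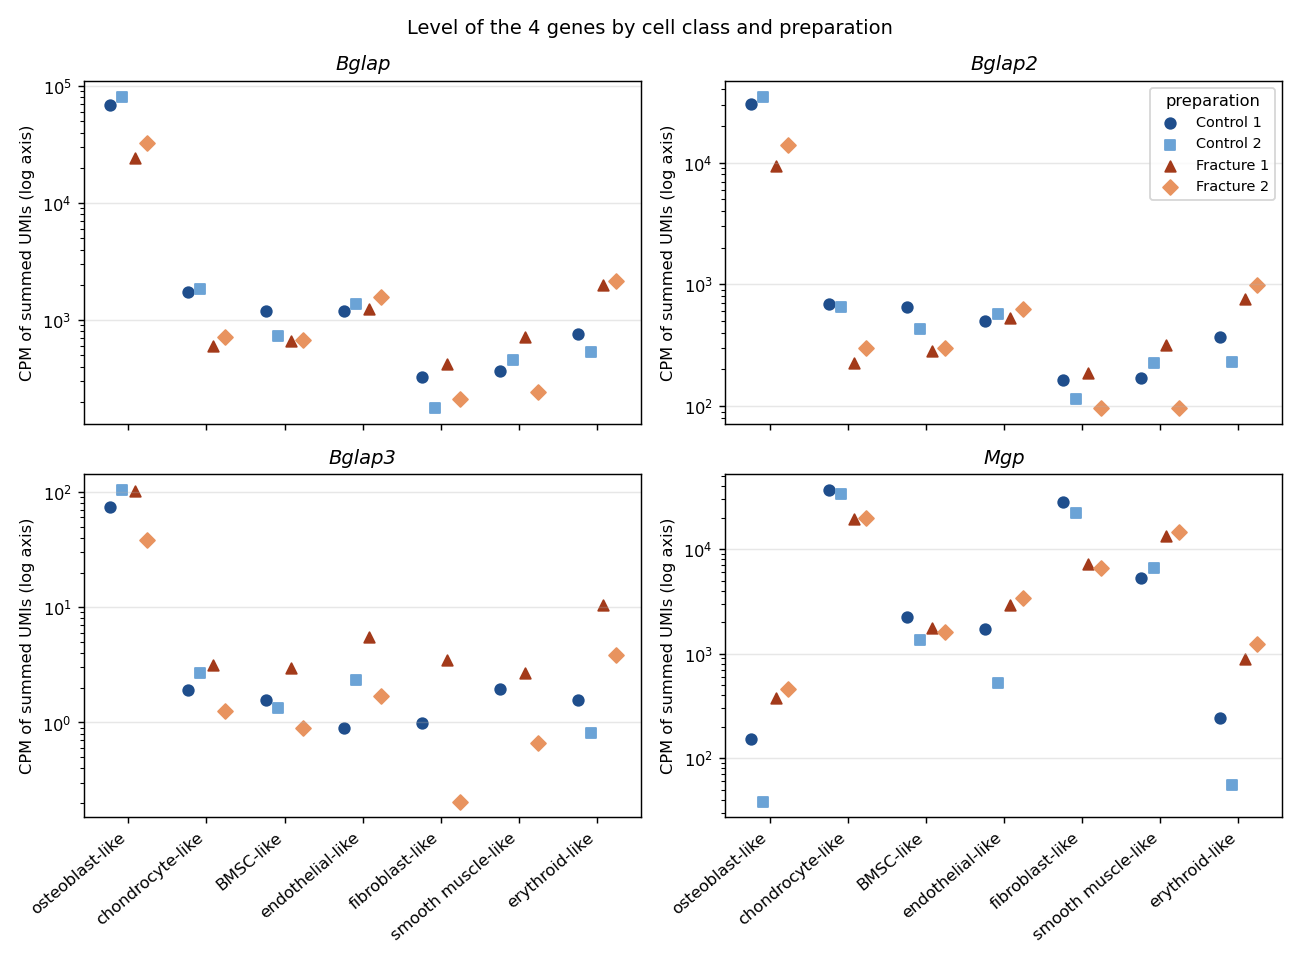
Level of each of the 4 genes (CPM of summed UMIs, log axis) in 7 marker-defined classes, with 1 point per preparation coloured by group. Bglap and Bglap2 stand highest in osteoblast-like cells, where both Control preparations lie above both Fracture preparations, and Mgp stands highest in chondrocyte-like cells in all 4 preparations; levels of 0 (Bglap3 in Control 2 fibroblast-like and smooth muscle-like cells) cannot be drawn on a log axis.

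The other classes held osteocalcin UMIs at levels that were read against the free RNA in droplets. Erythroid cells are not known to make osteocalcin, and the erythroid-like class had Bglap at 768, 538, 1994 and 2166 CPM. Most of those UMIs came from 1 fine cluster, number 19, which led with the muscle genes Acta1 and Mb and the globin gene Hba-a2 and held 65.8%, 72.0%, 96.1% and 95.3% of the osteocalcin UMIs of the class. Without it, a choice made after seeing the data, erythroid-like Bglap was 299, 165, 97.8 and 129 CPM and the osteocalcin sum was 429, 233, 143 and 181 CPM. Against that level the osteocalcin sum of osteoblast-like cells was 231-, 499-, 235- and 256-fold higher. Against the whole erythroid-like class it was 86.7-, 151-, 12.2- and 14.7-fold higher. Chondrocyte-like cells stood 5.66-, 10.8-, 5.78- and 5.61-fold over the erythroid-like level without cluster 19, and BMSC-like cells 4.30-, 5.03-, 6.61- and 5.34-fold. Fibroblast-like cells, at 1.15-, 1.24-, 4.26- and 1.70-fold and smooth muscle-like cells, at 1.26-, 2.93-, 7.22- and 1.87-fold, lay nearer to it than these 2 classes in both Control preparations and in Fracture 2. Endothelial-like cells stood at 3.97-, 8.40-, 12.5- and 12.2-fold, most of it from fine cluster 34, described below. Without that cluster, a choice made after seeing the data, they stood at 1.66-, 1.27-, 2.46- and 1.505-fold (715, 297, 351 and 273 CPM), below the chondrocyte-like cells in all 4 preparations. Against the whole erythroid-like class, cluster 19 included, chondrocyte-like cells had ratios of 2.13, 3.27, 0.299 and 0.322, BMSC-like cells 1.62, 1.53, 0.342 and 0.307 and endothelial-like cells 1.495, 2.55, 0.647 and 0.702. By that reference these 3 classes lay above it in both Control and below it in both Fracture preparations, and fibroblast-like and smooth muscle-like cells lay below it in all 4.

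Among single osteoblast-like cells osteocalcin content spread over the whole range from 0 to more than 200 UMIs when each cell was thinned to 1000 UMIs. The median cell had 82 and 75 osteocalcin UMIs in Control but 13 and 20 in Fracture. Cells with none made up 1.30% (95% Wilson interval 0.858 to 1.955), 3.48% (2.515 to 4.805), 24.3% (22.277 to 26.416) and 20.7% (18.921 to 22.698). The Fracture shares at 0 were higher than both Control shares, with no overlap. Cells with 50 or more were 67.5%, 61.9%, 27.2% and 34.2% of the class. The most loaded cell had 253, 285, 207 and 232 osteocalcin UMIs, so cells with a high content were present in all 4 preparations. Bglap itself was seen in 98.3%, 95.7%, 73.4% and 76.7% of osteoblast-like cells. With 2 preparations against 2, a two-sided exact permutation test cannot go below p = 0.333, the value it gave for these shares. The intervals cover counting error only. In erythroid-like cells, which should lack the genes, 51.5%, 24.3%, 19.9% and 23.7% had an osteocalcin UMI at the same thinned depth, and chondrocyte-like cells, with 49.7%, 46.3%, 22.0% and 26.6%, lay below that background in Control 1 and above it in the other preparations. Median depth before thinning was 18569, 20895, 11155 and 12090 UMIs in osteoblast-like, and 2888, 8583, 7360 and 7260 in erythroid-like cells.

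**Figure D2:**
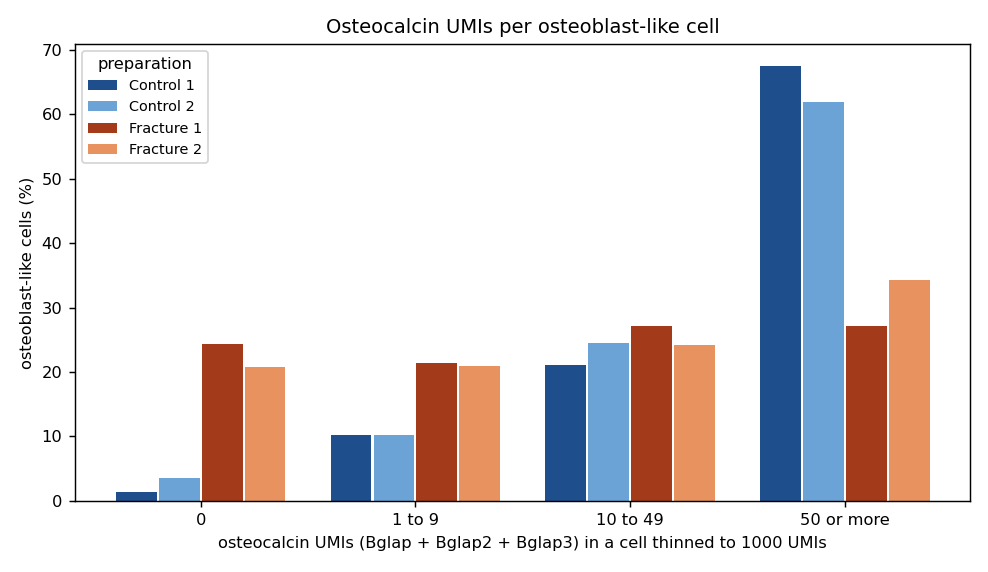
Share of osteoblast-like cells (percent) with 0, 1 to 9, 10 to 49 and 50 or more osteocalcin UMIs after thinning each cell to 1000 UMIs, with bars for the 4 preparations. The bin of 50 or more holds 67.5% and 61.9% of Control cells against 27.2% and 34.2% of Fracture cells, and the bin at 0 holds 24.3% and 20.7% of Fracture cells.

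The fracture comparison asked how the levels within a class differed between Fracture and Control. In osteoblast-like cells mean Bglap was 74765 ± 8908 CPM (SD, n = 2 preparations) in Control and 28332 ± 5937 in Fracture. In edgeR's quasi-likelihood test with Benjamini-Hochberg adjustment, the log2 fold change was -1.47 (SE 0.38), with an adjusted p of 0.0646 with all genes and 0.00121 without the U genes. Of 17 alternatives tried for this value, 8 brought it past 0.05, among them the fit without the U genes. Those 8 include the library as the unit, which counts libraries of 1 preparation as replicates, and both fits that left out a Control preparation. Mean Bglap2 was 32686 ± 3161 CPM in Control and 11663 ± 3151 in Fracture. Bglap2 fell by 1.55 on the log2 scale (SE 0.31), with adjusted p of 0.0382 and 0.00122. With all genes it no longer passed when Fracture 1 (adjusted p 0.266) or Fracture 2 (0.177) was left out, each fit then assuming that the lone sample varied like the other group. The osteocalcin sum had a log2 fold change of -1.49 (SE 0.44, adjusted p 0.0849 and 0.00124). Bglap3 had a log2 fold change of -0.43 (SE 0.47, adjusted p 0.557 and 0.395), and did not pass in either fit. Of all genes tested in the class, 16% were called with all genes and 26% without the U genes, so a call was common. In bulk sums of a class, fewer cells with a high content and less RNA per cell cannot be told apart. Among cells with 50 or more osteocalcin UMIs at the thinned depth, the osteocalcin sum was 121705, 142162, 89741 and 108043 CPM. Both the share of such cells and the level within them were thus lower in Fracture, a description with no test.

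**Figure D3:**
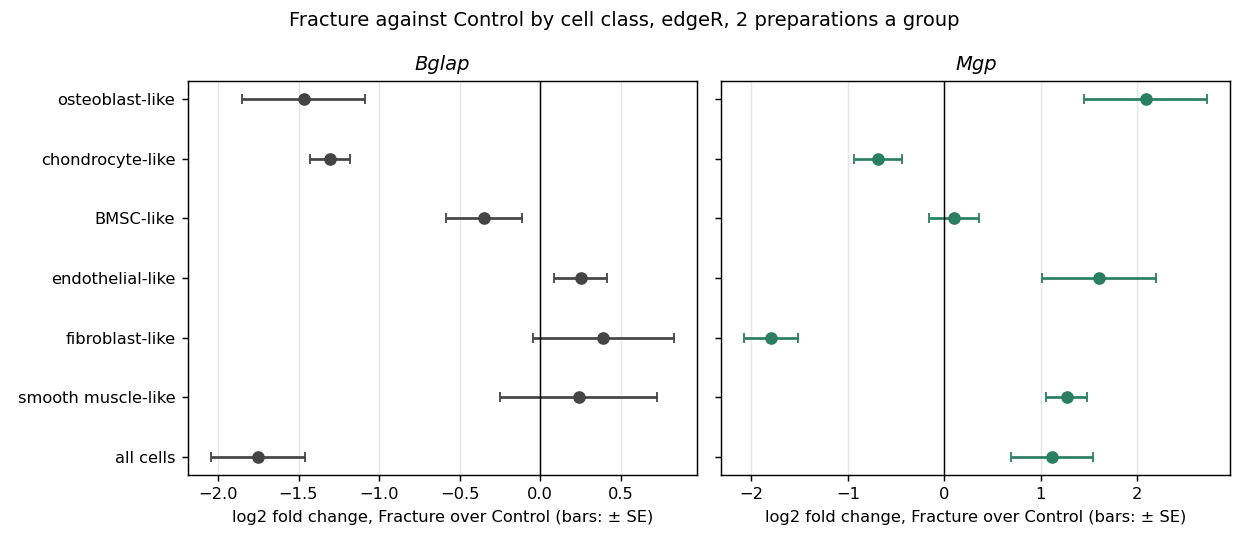
Log2 fold change, Fracture over Control, of Bglap and Mgp in 6 classes and in all cells together, with bars of 1 standard error derived from the F statistic of edgeR's test (2 preparations a group). Bglap lies below 0 in osteoblast-like and chondrocyte-like cells, and Mgp lies below 0 in chondrocyte-like and fibroblast-like cells and above 0 in smooth muscle-like, endothelial-like and osteoblast-like cells.

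Other matrix and mineralisation genes of osteoblasts moved in both directions. Of a list of 16, all tested in osteoblast-like cells, 5 rose and 2 fell, against 9.5% of all genes called higher and 6.47% called lower. With TMM 1308 genes were called higher and 890 lower, and with library totals only 1348 and 587. The median log2 fold change of the list was 0.19 and that of all genes -0.00. Spp1, which encodes osteopontin, stood at 1389 and 960 TMM-normalised CPM in Control and 3440 and 3446 in Fracture, and rose by 1.57 on the log2 scale (SE 0.19, adjusted p 0.0139). Enpp1, which makes the mineralisation inhibitor pyrophosphate, rose from 4.05 and 2.26 to 8.11 and 9.5 TMM-normalised CPM (adjusted p 0.0349). Dmp1, a matrix protein of late osteoblasts and osteocytes, rose from 154 and 199 to 299 and 302 (adjusted p 0.0307). For each of these 3 genes, named because they were called, the groups did not overlap. Ibsp (bone sialoprotein) and Alpl (alkaline phosphatase) also rose. The genes that fell were Phex, an endopeptidase of osteocytes, from 362 and 310 to 150 and 162 (adjusted p 0.0079), and Mepe, with a log2 fold change of -1.29 (adjusted p 0.0382). The collagen I genes did not pass, with log2 fold changes of -0.12 for Col1a1 (adjusted p 0.895) and 0.16 for Col1a2 (adjusted p 0.825). Without the U genes 5 rose and 3 fell, Col22a1 being the added one, against 14.3% of all genes called higher and 11.7% lower.

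Of 16 transcription factors and cofactors known to act on the osteocalcin genes, all tested, 2 rose and 1 fell, against the 9.5% and 6.47% of all genes called higher and lower. Vdr, the vitamin D receptor, stood at 134 and 127 TMM-normalised CPM in Control and 61.0 and 64.6 in Fracture, and fell by 1.04 on the log2 scale (adjusted p 0.0048). Foxo1 rose from 12.6 and 13.6 to 23.5 and 25 (adjusted p 0.0108), and the AP-1 gene Fosl2 rose by 0.70 on the log2 scale (adjusted p 0.0184). None of these 3, named because they were called, overlapped between groups. Runx2, the factor that osteoblast formation depends on, stood at 196, 195, 198 and 208, with a log2 fold change of 0.07 (adjusted p 0.454). Without the U genes 2 rose and 4 fell, with Dlx3, Dlx5 and Mef2c added to Vdr, where 26% of all genes were called. The median log2 fold change of this list was -0.12.

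The vitamin K cycle supplies the cofactor for carboxylation of both proteins. Of 8 genes of the cycle 7 were tested in osteoblast-like cells and 2 rose, against 9.5% of all genes. P4hb, a disulfide isomerase that can pass electrons to Vkorc1, rose from 343 and 353 to 580 and 621 TMM-normalised CPM (adjusted p 0.0082), and Calu, which encodes calumenin, rose by 0.35 on the log2 scale (adjusted p 0.0444). The carboxylase gene Ggcx stood at 44.8, 42.2, 45.8 and 56.5, with groups that did not overlap and a log2 fold change of 0.25 that did not pass (adjusted p 0.203). Vkorc1, the reductase that warfarin blocks, stood at 94.4, 97.8, 67.7 and 83.4, with a log2 fold change of -0.33 and adjusted p of 0.117 and 0.0458. The median of the list was -0.02. Of 13 other vitamin K-dependent proteins 6 were tested. Gas6, a ligand of TAM receptors, fell from 18.4 and 10.3 to 5.48 and 4.31 (adjusted p 0.0394) and F10 fell by 3.66 on the log2 scale (adjusted p 0.0494), 2 falls among 6 genes against 6.47% of all genes. Ucma, a Gla-rich cartilage protein, was absent from the Control 1 tables and stood at 1184, 899 and 912 TMM-normalised CPM in the chondrocyte-like cells of the other preparations and at 1.03, 8.27 and 12.7 in their osteoblast-like cells, with no test. Of 6 osteocalcin receptor and processing genes 3 were tested, and Furin, the protease that can cleave the osteocalcin propeptide, had a log2 fold change of 0.33 that passed only without the U genes (adjusted p 0.103 and 0.0425). Of 8 neighbours of the cluster 6 were tested, and 1, Pmf1, fell from 17.3 and 15.9 to 11.1 and 10.4 (adjusted p 0.0237).

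Within a preparation, osteoblast-like cells with much and with no osteocalcin differed in other genes as well. Cells with 50 or more osteocalcin UMIs at the thinned depth were set beside cells with 0, of which there were 22, 35, 400 and 367. The cells were chosen on osteocalcin, so this is a description with no test. Ibsp stood at 23651, 24657, 21049 and 25832 CPM in cells with none and at 5227, 5635, 3935 and 4068 in cells with 50 or more, the same direction in all 4 preparations. The log2 ratio for Spp1 ran from -3.31 to -1.41 and that for Foxo1 from -1.66 to -0.59. For Runx2 it ran from -0.79 to -0.53 and for Alpl from -0.94 to -0.44. Col1a1, with 0.64 to 1.01, Sparc, which encodes osteonectin, with 0.77 to 1.12, and Phex, with 0.41 to 1.09, were higher in cells with 50 or more in every preparation. Vdr had no single direction, with log2 ratios from -0.71 to 0.40. Osteocalcin UMIs were left out of the total behind these CPM.

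**Figure D4:**
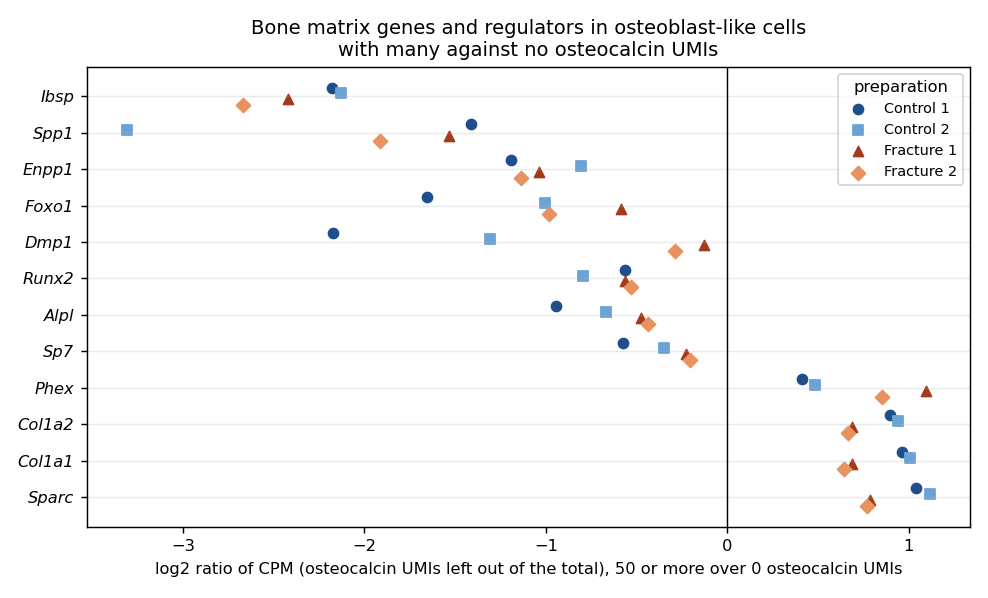
Log2 ratio of the level (CPM + 1) of 12 matrix, mineralisation and regulator genes in osteoblast-like cells with 50 or more over those with 0 osteocalcin UMIs, with 1 point per preparation. Ibsp and Spp1 lie farthest below 0 and Col1a1, Col1a2, Sparc and Phex lie above 0 in all 4 preparations.

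The osteoblast-like class held 3 fine clusters, each with a lower osteocalcin sum in Fracture. Cluster 0, which led with Ifitm5 and Car3, had 100767, 121523, 28665 and 42045 CPM and was 59.7%, 59.0%, 48.5% and 48.4% of the class. Cluster 2, which led with Cpz, Lipc and Gal, had 101208, 112864, 39275 and 51698 CPM and was 34.7%, 36.8%, 48.1% and 48.3%. Cluster 31, with the osteocyte genes Ptprz1, Dkk1 and Phex, had 57876, 56309, 15257 and 31709 CPM, the lowest of the 3 in each preparation. Control preparations lay above Fracture preparations in all 3 clusters. The Bglap log2 fold change was -1.79 (SE 0.37) in cluster 0, with adjusted p of 0.0427 and 0.000613, where 13% of all genes were called. In cluster 2 it was -1.21 (SE 0.32), with adjusted p of 0.0722 and 0.000511 and 11.7% and 21.3% of all genes called in the 2 fits. In cluster 31 it was -1.19 (SE 0.29), with adjusted p of 0.108 and 0.000548 and 2.11% and 6.69% called. The share of cells with 10 or more osteocalcin UMIs at the thinned depth was 85.7%, 85.0%, 44.5% and 52.0% in cluster 0 and 94.4%, 90.8%, 64.6% and 65.9% in cluster 2.

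Chondrocyte-like cells carried far less osteocalcin, at a level that was also lower in Fracture. Bglap stood at 1734, 1851, 596 and 717 CPM and Bglap2 at 693, 651, 227 and 300 CPM, with no overlap between groups. In edgeR's test Bglap fell by 1.30 on the log2 scale (SE 0.12, adjusted p 0.0048 and 0.000353) and Bglap2 by 1.20 (SE 0.15, adjusted p 0.0086 and 0.000911). Without Fracture 1 the Bglap value was -1.15 and just missed the threshold (adjusted p 0.0533). Bglap3 had a log2 fold change of 0.13 (adjusted p 0.874). In this class 37.2% of all genes were called, and 45.1% without the U genes. The log2 ratio of the osteocalcin sum was -1.49 after the level of erythroid-like cells without cluster 19 had been taken off each preparation, and that of osteoblast-like cells was -1.43. The free RNA moved with this result, since the erythroid-like level without cluster 19 was also lower in Fracture, and its part in the result beyond that subtraction was not tested.

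The fine clusters of chondrocyte-like cells differed in osteocalcin. Cluster 13, which led with Col10a1 and Ihh, genes of hypertrophic cartilage, had an osteocalcin sum of 1472, 1537, 143 and 134 CPM, and its 2 Fracture values lay at or below the erythroid-like free RNA of 143 and 181 CPM. Its Bglap fell by 3.49 on the log2 scale (SE 0.12, adjusted p 2.7e-05), in a cluster where 17.9% of all genes were called. Cluster 4, which led with Chrdl2 and C1qtnf3, stood at 3062, 3149, 248 and 256 CPM, and its Bglap fell by 3.54 (SE 0.09, adjusted p 0.000109), with 14.5% called. Cluster 12, with Col10a1 and Bmp2, stood at 1530, 1324, 250 and 284 CPM and cluster 5, with Chrdl2 and Panx3, at 2408, 3583, 401 and 521. Both had a fall in Bglap, by 2.49 (adjusted p 0.00033, with 15.4% of genes called) and by 2.62 (adjusted p 0.0042, with 27.6% called). In cluster 6, which led with Serpina1a and Pax1, the order was the other way, with 1418, 1692, 2208 and 3370 CPM. Its Bglap had a log2 fold change of 0.92 (SE 0.25), with adjusted p of 0.103 and 0.0200, and 5.11% and 14.2% of all genes were called in the 2 fits. Cluster 6 made up 30.7%, 30.1%, 10.4% and 9.79% of the chondrocyte-like cells. Cluster 1, with Chi3l1 and Wfdc2, held 29.9%, 29.6%, 36.1% and 37.3% of the osteocalcin UMIs of the class, at 5089, 6498, 2455 and 2895 CPM, and its Bglap fell by 1.00 (SE 0.16, adjusted p 0.0180). With cells marked as doublets left out, the osteocalcin sum of the whole class was 1607, 1901, 586 and 893 CPM, below the values with them in each preparation. Cluster 3, with Spp1 and Mmp13, stood at 6305, 328, 1026 and 1106 CPM within the class, so that Control 2, with 62 cells, lay below both Fracture preparations, and its Bglap value of -1.65 (SE 0.64) did not pass (adjusted p 0.169 and 0.0677).

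The remaining classes had far lower osteocalcin levels than osteoblast-like cells, and 1 or 2 fine clusters of the BMSC-like and endothelial-like classes held most of the osteocalcin UMIs there. They were not all below the chondrocyte-like class, since the endothelial-like sum lay above the chondrocyte-like one in both Fracture preparations. BMSC-like cells had a sum of 1845, 1171, 945 and 968 CPM, and fine cluster 9, which led with Mmp9 and Tnc, held 54.2%, 46.9%, 55.4% and 69.3% of it, with another 26.7%, 37.5%, 20.5% and 11.7% in the cycling fine cluster 29, which had 17 cells in Control 2. Bglap2 fell by 0.71 on the log2 scale in BMSC-like cells (SE 0.21, adjusted p 0.0425 and 0.0153), where 51.3% and 56.6% of all genes were called, while Bglap had -0.35 (adjusted p 0.274). Of 19 alternatives 8 lost the Bglap2 call, among them the fits without Fracture 1 (adjusted p 0.2005), without Fracture 2 (adjusted p 0.157) and without cluster 29, where the value was -0.28 (adjusted p 0.458). Leaving out Control 1 gave -0.37 (adjusted p 0.00317). The make-up of the class also differed between groups, with cluster 7 at 42%, 42.4%, 8.93% and 10.8% of its cells and cluster 14 at 14.1%, 18.4%, 37.2% and 36.7%, so the BMSC-like values join different clusters in Control and Fracture. Endothelial-like cells had a sum of 1706, 1955, 1787 and 2215 CPM. A cluster of 7, 7, 47 and 48 cells in the class, number 34, which led with Kcne3 and Gal and shared the osteoblast-like gene Entpd3, held 58.7%, 85.1%, 81.4% and 88.3% of those UMIs at 78356, 90593, 26466 and 37440 CPM, close to the osteoblast-like level. Its Control values thus rest on 7 cells each. The doublet caller marked 57.1%, 71.4%, 23.4% and 12.5% of its cells, and with marked cells left out the sum of the whole class was 1040, 1208, 1408 and 2084 CPM. Bglap in the whole endothelial-like class had a log2 fold change of 0.25 (adjusted p 0.284), and -0.60 (adjusted p 0.337) without cluster 34. In fibroblast-like and smooth muscle-like cells Bglap values were 0.39 (adjusted p 0.574) and 0.24 (adjusted p 0.753).

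The share of Bglap2 in the osteocalcin sum of osteoblast-like cells was 30.8%, 30.1%, 28.0% and 29.9%, nearly the same in all preparations although the sum itself differed by more than 2-fold. The Control shares lay above the Fracture shares (exact permutation test, two-sided, p = 0.333), and the Wilson intervals, such as 30.710 to 30.813 in Control 1 and 27.909 to 28.133 in Fracture 1, cover counting error only. In BMSC-like cells Bglap2 took a larger share, 35.3%, 36.8%, 29.9% and 30.7%, and in their fine cluster 9 it was 38.4%, 41.5%, 31.4% and 29.8%. A larger share was not particular to them. Fibroblast-like cells, whose osteocalcin sum lay near the free RNA level in Control, also exceeded the osteoblast-like share in every preparation. They exceeded the BMSC-like share in Control 2 and both Fracture preparations. Bglap3 took 0.075%, 0.090%, 0.303% and 0.083% of the sum in osteoblast-like cells, from 2322, 2121, 1867 and 833 UMIs. Fracture 1 stood apart, and did so in both of its libraries, with 0.36% and 0.26%. It was also high in the chondrocyte-like (0.380%), BMSC-like (0.312%), endothelial-like (0.312%) and erythroid-like (0.379%) cells of that preparation. The Fracture mean of Bglap3 thus joins 2 preparations that lie far apart.

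Mgp had another distribution. Chondrocyte-like cells had the highest level in each preparation, 36936, 33666, 19641 and 19859 CPM, and held 86.5%, 86.6%, 92.7% and 92.4% of all Mgp UMIs, being 16.2%, 8.55%, 57.4% and 55.8% of the cells. Fibroblast-like cells followed in Control with 28392 and 22209 CPM, against 7166 and 6618 in Fracture. Smooth muscle-like cells had 5286 and 6556 CPM in Control and 13375 and 14715 in Fracture. The order of these 2 classes was therefore reversed between the groups, with fibroblast-like cells next to chondrocyte-like cells in both Control preparations and smooth muscle-like cells next in both Fracture preparations. Endothelial-like cells had 1739, 519, 2920 and 3395 CPM and BMSC-like cells 2246, 1357, 1755 and 1625, and the ranges of these 2 classes overlapped. Osteoblast-like cells, with 151, 38.1, 374 and 460 CPM, were the lowest of the 6 classes.

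Erythroid-like cells were the reference for Mgp too. They had 244, 55.7, 891 and 1248 CPM, and 221, 43.1, 314 and 305 without cluster 19. Over the latter level, Mgp stood 167-, 781-, 62.5- and 65.2-fold higher in chondrocyte-like cells, 128-, 515-, 22.8- and 21.7-fold in fibroblast-like and 23.9-, 152-, 42.6- and 48.3-fold in smooth muscle-like cells. In osteoblast-like cells the ratio was 0.683, 0.884, 1.19 and 1.51, below the reference in both Control and above it in both Fracture preparations. Against the whole erythroid-like class it was 0.620, 0.685, 0.420 and 0.368, below the reference in all 4. This reference level was itself higher in both Fracture than in both Control preparations, and in Fracture the chondrocyte-like cells were more than 50% of all cells. The ratios are of CPM, not of UMIs per cell. Erythroid-like cells without cluster 19 had a median of 3696, 13624, 6366 and 7175 UMIs, fewer than the osteoblast-like medians given above. The order by CPM did not hold for UMIs per cell. Erythroid-like cells without cluster 19 had 1.58, 0.768, 2.87 and 3.01 Mgp UMIs per cell, and the whole class 1.45, 0.770, 8.47 and 12.3. Osteoblast-like cells had more than the former in all 4 preparations, by little in Control 2. They had more than the whole class in both Control and fewer in both Fracture preparations.

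Per cell, Mgp was found in most chondrocyte-like cells. At 1000 UMIs 91.8%, 85.4%, 83.7% and 83.4% of them had an Mgp UMI, with a median of 12, 10, 6 and 7. Smooth muscle-like cells had 71.4%, 72.4%, 93.4% and 90.8%, with a median of 1 and 2 in Control and 12 in both Fracture preparations. Fibroblast-like cells had 79.7%, 51.8%, 76.8% and 78.1%, with a median of 8, 1, 3 and 2. The share in fibroblast-like cells overlapped between groups, although the summed level did not, and Control 2 had only 140 fibroblast-like cells before thinning. In erythroid-like cells the share was 29.1%, 7.22%, 26.1% and 29.6%, and osteoblast-like cells with 12.3%, 5.27%, 23.5% and 23.5% lay at or below it in every preparation.

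After fracture the Mgp level moved in different directions in different classes. In fibroblast-like cells Mgp fell by 1.80 on the log2 scale (SE 0.28, edgeR adjusted p 0.0193 and 0.00354), where 18.3% and 25.4% of all genes were called in the 2 fits. In smooth muscle-like cells it rose by 1.27 (SE 0.21, adjusted p 0.0144 and 0.00231), with 26% and 33.5% of genes called. Groups did not overlap in either class. Neither call held when Fracture 1 or Fracture 2 was left out, with adjusted p of 0.343 and 0.353 in fibroblast-like and 0.0610 and 0.0736 in smooth muscle-like cells. In chondrocyte-like cells the log2 fold change was -0.69 (SE 0.25), with adjusted p of 0.0935 with all genes and 0.00345 without the U genes, and in BMSC-like cells it was 0.10 (adjusted p 0.772). Endothelial-like cells had 1.61 (SE 0.59, adjusted p 0.0980 and 0.0366), in a class with 35.2% and 42.9% of genes called. Osteoblast-like cells had 2.09 (SE 0.64, adjusted p 0.0912 and 0.0143), on a CPM level of 0.683 to 1.51 times the erythroid-like one without cluster 19. Without Control 1 that value was 3.35 and without Control 2 it was 1.43. With the erythroid-like level without cluster 19 taken off, the log2 ratios were -0.86 in chondrocyte-like, -1.93 in fibroblast-like and 1.25 in smooth muscle-like cells.

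Within the chondrocyte-like class Mgp ranged more than 10-fold between fine clusters. Cluster 1, which led with Chi3l1, Wfdc2 and Myoc and raised too few class markers to be named alone, had 84470, 79271, 35917 and 35669 CPM. Cluster 3, which led with Ffar4, Spp1, Mmp13 and Mepe and raised 4 of 5 late osteoblast markers, had 65149, 74910, 32762 and 34574 CPM. Cluster 6 had 51626, 46915, 49936 and 53726 CPM, with overlapping groups. At the other end, the Col10a1 and Ihh cluster 13 had 4624, 4844, 2155 and 2175 CPM and the Col10a1 and Bmp2 cluster 12 had 7186, 9737, 4754 and 5439. In tests over all cells of a fine cluster, Mgp fell in cluster 1 by 1.07 (SE 0.17, adjusted p 0.0162), in cluster 3 by 0.91 (SE 0.09, adjusted p 0.0051) and in cluster 13 by 1.13 (SE 0.07, adjusted p 0.000216). Of all genes, 16.4% were called in cluster 1 and 7.63% in cluster 3. In cluster 6 the log2 fold change was 0.21 (SE 0.24, adjusted p 0.631) and in the cycling cluster 18 it was -0.03 (adjusted p 0.951). Cluster 3 was 5.50%, 9.16%, 17.4% and 16.7% of the chondrocyte-like cells and cluster 4, with Mgp at 22444, 13066, 12649 and 11319 CPM, was 6.61%, 5.76%, 16% and 16.4%. The chondrocyte-like value thus joins a change within clusters and a change in which clusters made up the class.

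**Figure D5:**
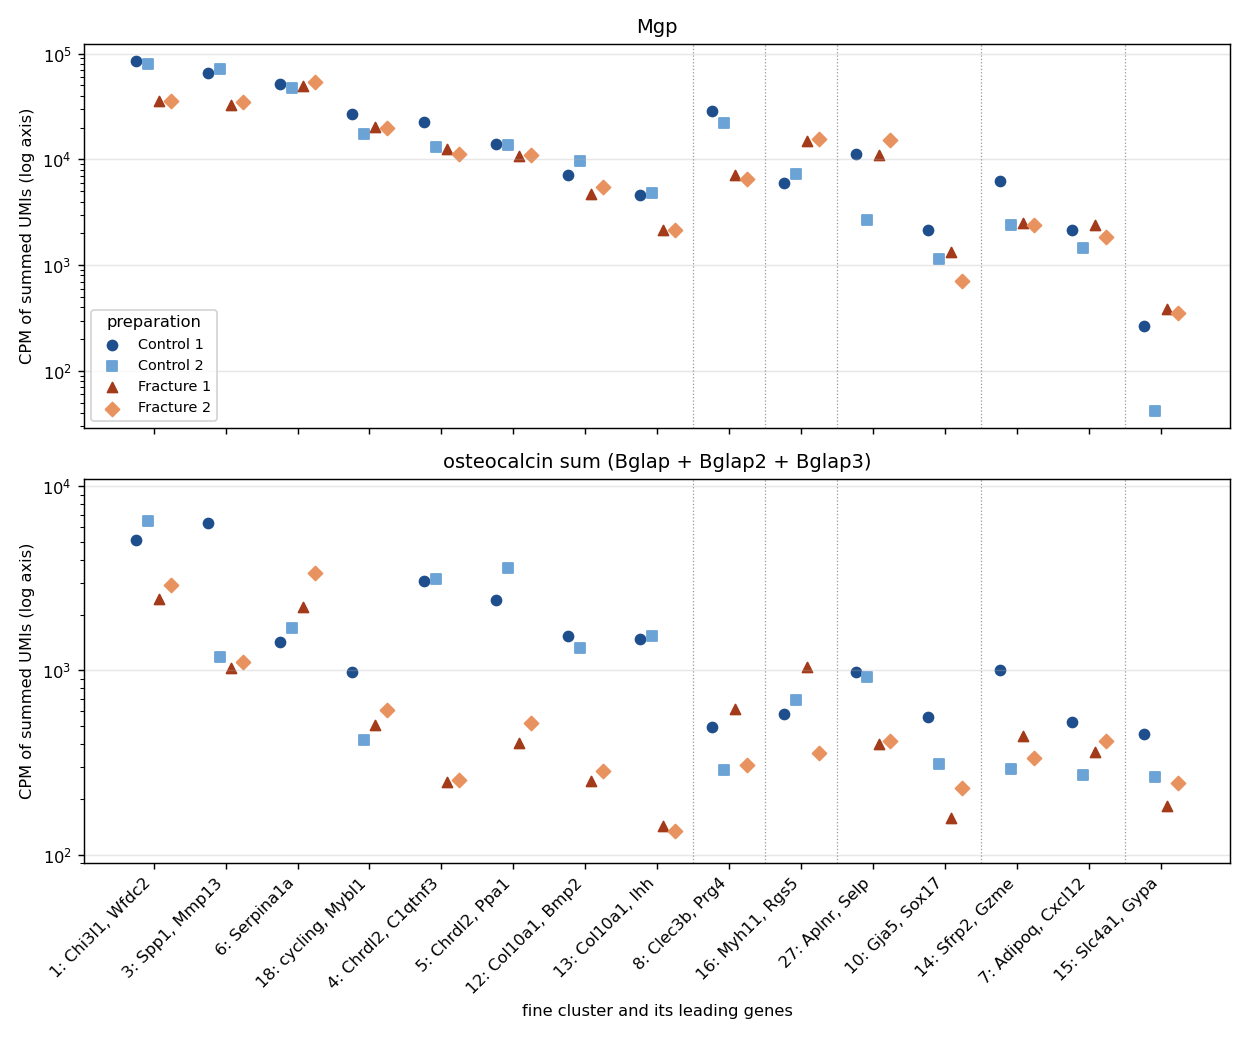
Level of Mgp and of the osteocalcin sum (CPM, log axis) in 15 fine clusters of chondrocyte-like, fibroblast-like, smooth muscle-like, endothelial-like, BMSC-like and erythroid-like cells, with 1 point per preparation coloured by group. Clusters 1, 3 and 13 have lower Mgp in both Fracture preparations, cluster 6 does not, and the osteocalcin sum of clusters 4, 12 and 13 is lower in both Fracture preparations.

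In Fracture a small fine cluster held most of the Mgp UMIs of endothelial-like cells, and in Control the arterial cluster 10 held more. Cluster 27, which led with the venous and lymphatic genes Aplnr, Selp and Ccl21a, had 433 cells and was 2.75%, 1.75%, 14.9% and 13% of the class, but held 41.0%, 17.7%, 78.7% and 84.9% of its Mgp UMIs, at 11152, 2698, 10936 and 15039 CPM. Without it, a choice made after seeing the data, the endothelial-like log2 fold change was -0.02 (SE 0.43, adjusted p 0.975). Within cluster 27 it was 1.17 (SE 0.54, adjusted p 0.216), with overlapping groups, while 10.5% of all genes were called there. Bglap in the same cluster fell by 1.07 on the log2 scale (SE 0.16, adjusted p 0.0069), from 748 and 699 to 278 and 312 CPM within the class. Erythroid-like Bglap without cluster 19 was 299, 165, 97.8 and 129 CPM. Cluster 27 had 45 and 22 cells in Control, and the part of doublets in this Bglap value was not tested. The doublet caller marked 60.0%, 40.9%, 25% and 31.7% of the cells of cluster 27, and with marked cells left out Mgp of the whole class was 1352, 509, 2100 and 2535 CPM (log2 fold change 1.42, adjusted p 0.0802). Cluster 10, with Gja5 and Sox17, held 51.0%, 72.8%, 10.7% and 5.54% of the Mgp UMIs of the class and had Mgp at 2152, 1153, 1342 and 716 CPM and no called change (log2 fold change -0.62, adjusted p 0.314). Cluster 11 had Mgp at 281.5, 77.6, 599.7 and 844.8 CPM, with no overlap. Erythroid-like cells without cluster 19 had 221, 43.1, 314 and 305 CPM. The log2 fold change in cluster 11 was 2.10, and it passed only without the U genes (2.09, adjusted p 0.00878). The value of -0.02 without cluster 27 thus joins clusters with log2 fold changes of different sign.

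The difference in fracture effect between 2 classes was itself tested, in all 15 pairs of 6 classes. For Mgp the effect in smooth muscle-like cells exceeded that in chondrocyte-like cells by 2.01 on the log2 scale (edgeR, adjusted p 7.37e-05) and that in fibroblast-like cells by 3.06 (adjusted p 0.00178). In these 2 fits 21.8% and 9.74% of all genes were called. The endothelial-like effect exceeded the chondrocyte-like one by 2.49 (adjusted p 0.0081, 36.9% of genes called) and the fibroblast-like one by 3.55 (adjusted p 0.000596, 14.7% called). Without fine cluster 27 these 2 differences were 0.74 (adjusted p 0.122), which did not pass, and 1.81 (adjusted p 0.00209). The fibroblast-like minus chondrocyte-like difference was -1.08 (adjusted p 0.00612, 17.9% called). The osteoblast-like effect exceeded the chondrocyte-like one by 3.01 (adjusted p 0.000339, 28.4% called), and the fibroblast-like minus osteoblast-like difference was -4.05 (adjusted p 0.000597, 15.8% called), both on the osteoblast-like Mgp level described above. In all, 13 of the 15 pairs passed for Mgp with all cells of each class. For Bglap 8 of the 15 passed with all cells of each class, which were all pairs of the osteoblast-like or chondrocyte-like class with any of the other 4. Those with fibroblast-like or smooth muscle-like cells rest on low Bglap levels. Over erythroid-like cells without cluster 19, these stood at 1.10-, 1.07-, 4.29- and 1.65-fold and at 1.24-, 2.76-, 7.29- and 1.89-fold, highest in Fracture 1. Those pairs thus do not show a response of fibroblast-like or smooth muscle-like cells themselves. The endothelial-like effect exceeded the osteoblast-like one by 1.67 (adjusted p 1.41e-07, 27.2% called) and the chondrocyte-like one by 1.504 (adjusted p 0.000127). Without fine cluster 34 these 2 differences were 0.96 (adjusted p 0.134) and 0.78 (adjusted p 0.199), so neither passed. The BMSC-like effect exceeded the osteoblast-like one by 1.17 (adjusted p 0.00699, 36.6% called). The osteoblast-like minus chondrocyte-like difference was -0.18 for Bglap (adjusted p 0.151), which did not pass, -0.37 for Bglap2 (adjusted p 0.0261) and -0.51 for Bglap3 (adjusted p 0.0237), which passed.

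Matrix Gla protein is known to bind bone morphogenetic proteins (BMPs), and 12 BMP ligands, receptors and targets were followed in chondrocyte-like cells. All 12 were tested, 6 rose and 1 fell, against 19% of all genes called higher and 18.1% called lower, with a median log2 fold change of 0.72 for the list and -0.01 for all genes. With TMM 3293 genes were called higher and 3137 lower, and with library totals only, which moved the median of all genes to -0.15, 2235 and 4515. Id3, a target of BMP signalling, rose from 217 and 220 to 522 and 504 TMM-normalised CPM. Smad7, an inhibitory Smad, rose from 74.9 and 86.3 to 193 and 180. The receptor genes Acvrl1 and Eng rose by 1.66 and 1.12 on the log2 scale, and Smad6 and Bmp2 by 1.16 and 0.69. Bmp7, the 1 ligand that fell, went from 52.6 and 41.4 to 9.58 and 9.97. Groups did not overlap in any of these with values given, all of which were called genes. Without the U genes 7 rose and 2 fell, with Bmp6 and Bmp4 added, where 23.6% of all genes were called higher and 21.5% lower. In fibroblast-like cells the list had the other balance, with 1 of 12 rising and 4 falling (9.49% of all genes called higher and 8.81% lower) and a median of -0.86. There Bmp2 stood at 195, 225, 42.7 and 38.4 TMM-normalised CPM and fell by 2.44 on the log2 scale (adjusted p 0.00334), Bmp4 fell by 1.68 (adjusted p 0.0111), Bmp6 by 1.74 (adjusted p 0.0342) and Id1 by 0.69 (adjusted p 0.0255), while Smad7 rose by 0.57 (adjusted p 0.0426). In endothelial-like cells 7 of 12 fell (16.7% of all genes called lower, 18.5% higher), among them Acvrl1, Eng, Smad6 and the 3 Id genes. In BMSC-like cells 3 of 12 fell and none rose, where 26% of all genes were called lower and 25.3% higher. In osteoblast-like cells 3 of 11 rose and 1 fell, against the 9.5% and 6.47% of all genes given above. In smooth muscle-like cells 1 of 9 rose and 1 fell, near the 13.9% and 12.1% of all genes called higher and lower. Genes of this list outside the chondrocyte-like class were named after their values were seen.

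Over all cells of a preparation Bglap stood at 17708, 18140, 3731 and 5005 CPM and Bglap2 at 7866, 7811, 1461 and 2132. Bglap fell by 1.75 on the log2 scale (SE 0.29, adjusted p 0.0248 and 0.0136) and Bglap2 by 1.84 (SE 0.28, adjusted p 0.0211 and 0.0124), where 28.5% and 32.8% of all genes were called in the 2 fits. Both calls were lost without Fracture 1 (adjusted p 0.258 for Bglap and 0.208 for Bglap2) or Fracture 2 (0.198 and 0.158). Mgp stood at 9940, 5040, 13394 and 13374 CPM, with a log2 fold change of 1.12 (SE 0.43) that did not pass (adjusted p 0.122 and 0.0902). Its direction over all cells was thus opposite to that within chondrocyte-like cells, which were a larger share of the cells in Fracture.

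Over 28 profiles (7 classes by 4 preparations) and 6754 genes, the genes most like Bglap in log2(CPM + 1) were Bglap2 (Pearson r 0.997), Entpd3 (0.936) and Bglap3 (0.932). Those most like Mgp were Mfge8 (0.937), Gm11547 (0.918) and Sox5 (0.916). Bglap and Mgp themselves had r = -0.62. These are descriptions, since the profiles share libraries and depth.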

How the data were processed

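Single-cell suspensions were run on the 10x Chromium 3′ v3 system and sequenced on a NextSeq500, per the study's methods. The authors deposited unnormalised UMI counts, genes by cell barcodes, for 8 libraries. The submitters' processing notes name bcl2fastq 2.19.1.403, UMI-tools 1.0.0, STAR 2.7.3a, Subread and featureCounts 1.6.4 with build mm10, while the methods name STARsolo, Gencode M23 and EmptyDrops, and the route that made these tables was not settled. How multi-mapping reads were handled is not given in the sources used here. No columns of the authors' own comparisons were used.

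Cells with 500 to 6000 genes and at most 25% mitochondrial UMIs, and genes in at least 3 cells (26357), were kept. Libraries were integrated with Seurat 5.3.0 (1945 features without cell-cycle genes or the 4 members, 12 principal components, resolution 0.1, and 1 for 37 fine clusters). Classes were named from markers. UMI counts were summed per class and preparation (at least 20 cells in each) and tested in edgeR 4.0.16 (TMM, filterByExpr, glmQLFit, glmQLFTest, group only) with Benjamini-Hochberg adjustment over all genes tested, at 0.05. Between 2 classes, the interaction of class and group was tested in a fit blocked by preparation. Standard errors (SE) were derived as the absolute log2 fold change over the square root of the F statistic of the edgeR test. Levels are CPM of the plain sums, and TMM-normalised CPM for listed genes. Shares of cells used cells thinned to 1000 UMIs, with 304 shallower Control cells and 0 Fracture cells left out. Tested on simulated data for the osteoblast-like class (13762 genes), the fit called 105 genes and recovered 11% of 2-fold and 90% of 4-fold changes. For the chondrocyte-like class (17290 genes) it called 132 and recovered 30% and 94%. In the data 2198 and 6430 genes were called, so the adjusted threshold was less strict there than in the simulation. The shares recovered are therefore not those of the tests on the data, in which changes near 2-fold could still be missed.

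Coding sequences came from GRCm38 with GENCODE M21 and promoters from RefSeq (GRCm38.p6). The members and gene lists were chosen with earlier results of these data known. Named from the lists are the called genes with the 3 largest rises and falls in osteoblast-like cells (in chondrocyte-like cells for the BMP list), Ggcx, Vkorc1, Gas6 and Ucma, and genes named after their values were seen, which are Runx2, Col1a1, Col1a2, Sparc, Furin, the other BMP genes, the genes added without the U genes, and those set beside osteocalcin content. Alternatives were no low-count filter, DESeq2 1.42.0, library totals only, thinned cells, deeper cells, no doublets, the library as the unit, other clusterings, classes without 1 fine cluster, a replicate block and leaving out each preparation. Python 3.11.15, scanpy 1.11.5, scipy 1.17.1 and R 4.3.3 were used.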

Additional observations from a re-analysis of the deposited data

Results flagged for a closer look

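Fracture effects on Mgp had opposite signs in 2 classes, each past the threshold with the U genes left out, and differed between them by a test of the difference in 6 pairs of classes. In log2 units the smooth muscle-like effect exceeded the chondrocyte-like one by 2.0072 and the fibroblast-like one by 3.06. The endothelial-like effect exceeded the chondrocyte-like one by 2.4859 and the fibroblast-like one by 3.5517, and without fine cluster 27 these were 0.74 (adjusted p 0.122 in edgeR) and 1.81 (adjusted p 0.00209), with an endothelial-like log2 fold change of -0.02. The osteoblast-like effect exceeded the chondrocyte-like one by 3.0138, and the fibroblast-like minus osteoblast-like difference was -4.0468. In those last 2 pairs the osteoblast-like Mgp level in CPM was 0.683 to 1.51 times that of erythroid-like cells without cluster 19, and its log2 fold change was 1.43 to 3.35 when 1 preparation was left out. By UMIs per cell, osteoblast-like Mgp lay above these erythroid-like cells in every preparation, by little in Control 2.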

How the results depend on the processing

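Of 586 comparisons of a value with an alternative, 450 were labelled the same. For a tested value this means that direction and side of the threshold were kept. For an untested value it means a move smaller than its spread between preparations. For a count of called genes it means a change within a set factor. Osteoblast-like Bglap (log2 fold change -1.47) passed 0.05 with no filter on low counts (-1.48), DESeq2 (-1.46), the library as the unit (-1.47), thinned cells (-1.22), the U genes left out (-1.47) and the replicate block without the U genes (-1.48). Chondrocyte-like Mgp (-0.69) passed under the same 6 settings, at -0.64, -0.66, -0.70, -0.53, -0.68 and -0.68. The library as the unit counts the 2 libraries of a preparation as replicates, so its p-values do not measure the spread between preparations. In osteoblast-like cells that setting called 4867 of 12078 genes, against 2198 of 13762 in the reported fit. Endothelial-like Mgp (1.61) passed with the library as the unit (1.62), the U genes left out (1.61), also without cluster 34 (1.64) or with the block (1.84), and was -0.021 without cluster 27 (-0.015 with the U genes left out too). All-cell Mgp passed with DESeq2 (1.16). Without Control 1 or without Control 2, osteoblast-like Bglap and chondrocyte-like, endothelial-like and all-cell Mgp also passed. Each of those fits held 1 Control preparation and assumed that it varied like the Fracture group. Leaving out each preparation gave -1.74 to -1.25 for osteoblast-like Bglap, -1.90 to -1.28 for Bglap2 and -1.26 to 0.083 for Bglap3, whose sign turned without Fracture 2, and which passed without Control 1 (-0.69). It gave -1.44 to -1.15 for chondrocyte-like Bglap, -0.74 to -0.63 for chondrocyte-like Mgp, 0.98 to 2.71 for endothelial-like, -1.98 to -1.57 for fibroblast-like and 1.10 to 1.42 for smooth muscle-like Mgp, and over all cells -1.98 to -1.54 for Bglap and 0.70 to 1.81 for Mgp. Over all 17 alternatives fibroblast-like Mgp ranged more widely, from -2.66 to -1.42. Osteoblast-like Mgp ranged from 1.43 to 3.35. Chondrocyte-like Bglap3 was -0.017 with library totals only, -0.18 without Control 1 and -0.68 without Fracture 1, the range being -0.68 to 0.63. BMSC-like Bglap was 0.051 without Control 1 (range -0.65 to 0.051) and 0.19 without cluster 29, with or without the U genes. It passed as a fall under 1 of its 19 alternatives. BMSC-like Mgp was -0.093 with library totals only, -0.22 without Control 2 (range -0.22 to 0.52) and -0.61 with no integration. It passed as a rise under 1 of its 19 alternatives. Endothelial-like Bglap was -0.60 without cluster 34 and -0.59 when the U genes were also left out. Over its 21 alternatives it ranged from -0.60 to 0.73, and it passed as a rise under 2 of them. Library totals only moved the median of all genes to -0.22 in BMSC-like and -0.36 over all cells. Of the differences between classes (log2), endothelial-like minus BMSC-like was -0.21 for Bglap without cluster 34, -0.0041 without cluster 29 and -0.065 for Mgp without cluster 27, where the Mgp difference with all cells had passed. Smooth muscle-like minus endothelial-like was 0.55 for Bglap without cluster 34 and 1.16 for Mgp without cluster 27, smooth muscle-like minus BMSC-like -0.14 for Bglap without cluster 29, and endothelial-like minus fibroblast-like 0.016 for Bglap without cluster 27. The cause of these changes was not tested. Leaving out the U genes and single fine clusters (19, 27, 29 and 34) was chosen after seeing the data. The groups share the replicate numbers 1 and 2, but with 2 numbers a pairing cannot be shown. Deviations of same-numbered preparations correlated by 0.04 to 0.27, and with the replicate block osteoblast-like Bglap was -1.48 (adjusted p 0.0795). Genes called by edgeR ranged over the alternatives from 413 to 8921 in chondrocyte-like (6430 as reported), 151 to 9340 in BMSC-like (7550), 82 to 4335 in fibroblast-like (2296), 512 to 3660 in smooth muscle-like (2708), 0 to 5073 in osteoblast-like (2198), 0 to 7258 in endothelial-like (5028) and 0 to 14033 over all cells (5829). The counts of 0 came without Fracture 1 or Fracture 2, where 2648 and 2709 osteoblast-like, 3929 and 4256 endothelial-like and 4008 and 4136 all-cell genes had an unadjusted p under 0.05. With 2 preparations a group, changes near 2-fold can be missed.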

Other observations

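The genes of the vitamin K cycle, described above for osteoblast-like cells, were also followed in the other classes. Of 7 tested in chondrocyte-like cells, Aifm2, Calu, Nqo1 and P4hb rose and none fell in edgeR's test, with a list median of 0.59 on the log2 scale and 19% of all genes called higher. In BMSC-like cells Calu, Ggcx, P4hb and Vkorc1 rose and Nqo1 fell, with a median of 0.36 and 25.3% of all genes called higher and 26% lower. In endothelial-like cells Calu, Nqo1 and P4hb rose, with a median of 0.70 and 18.5% called higher. The medians of all genes in these 3 classes were -0.01, -0.03 and 0.01. Calu and P4hb were called higher in all 6 stromal classes, in which 9.49% to 25.3% of all genes were called higher. The share of all genes called higher in all 6 classes was not counted. Furin, the propeptide protease, stood at 135, 157, 83.1 and 93.8 TMM-normalised CPM in chondrocyte-like cells, with Control above Fracture and no overlap, and fell by 0.77 on the log2 scale there (adjusted p 0.0108).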
